A study of Rattus norvegicus with 9 samples.

Results

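The enzymes described here are the phase I enzymes of drug and aldehyde metabolism that are not cytochromes P450. The rule that picks them reads gene symbols and no measured values, although it was written with earlier results of these data known. It takes all symbols that begin with Fmo, Adh, Aldh, Akr, Ces, Aox or Ephx followed by a digit, plus Cmbl, and except the bile acid reductase Akr1d1. Of 14497 rat genes with a probe set named for them alone, 58 met the rule: 15 aldo-keto reductases (Akr), 15 aldehyde dehydrogenases (Aldh), 10 carboxylesterases (Ces), 5 flavin-containing monooxygenases (Fmo), 4 alcohol dehydrogenases (Adh), 4 aldehyde oxidases (Aox), 4 epoxide hydrolases (Ephx) and Cmbl. Adh1, Adh4, Adh5, Aldh1a7 and Ces3a were not analysed here, since no probe set was named for them alone.

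RNA of liver cells of F344 rats was hybridised to 9 Affymetrix Rat ST 1.0 arrays, 3 per group, and the labels call the preparations of a group biological replicates. The first group held hepatocytes of adult rats aged 5 to 6 weeks, freed by collagenase perfusion. Both other groups held liver cells of embryonic day 19, digested with collagenase and sorted magnetically with antibodies to leucine aminopeptidase and to OC.2. The titles name one fetal group LAP+/OC.2+ (OC.2+ cells) and the other LAP+/OC.2- (OC.2- cells). The same double positive sorting program is written for both fetal groups, and the OC.2+ samples are also described as LAP-OC2+, so the assignment used here is that of titles and cell types. No genotype or treatment other than the sort is named, all groups share the strain, and no source used here gives the sex of the animals or how many made up a preparation.

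The defining markers were checked first. All 7 hepatocyte markers were measured in every group, and their summed intensity was 55410 to 60700 on adult arrays, 19830 to 21730 on OC.2+ arrays and 41750 to 44940 on OC.2- arrays. The 5 fetal hepatic markers, Afp among them, summed to 466 to 521 on adult arrays, 12130 to 12680 on OC.2+ arrays and 34870 to 37160 on OC.2- arrays. Granulocyte markers (8 of 8 measured) summed to 437 to 499 on adult arrays, 13850 to 15480 on OC.2+ arrays and 496 to 558 on OC.2- arrays. The granulocyte sum was thus far higher on the OC.2+ arrays than on any other array. In bulk RNA, fewer cells of a type and less RNA per cell cannot be told apart.

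Phase I enzymes add or uncover a reactive group on a drug, hormone or dietary compound, which conjugating enzymes can then use. Alcohol dehydrogenases make aldehydes, aldehyde dehydrogenases and aldehyde oxidases turn aldehydes into acids, and aldo-keto reductases turn aldehydes and ketones back into alcohols. Carboxylesterases split esters and amides, epoxide hydrolases open epoxides, and flavin-containing monooxygenases oxidise nitrogen and sulfur atoms. The adult liver is a main site of many of these enzymes, and several also work on the body's own retinoids, steroids, amino acids and fatty aldehydes.

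The sequences before the start site are shown for 4 members on which the comparisons turn: Akr1c2 and Ces1c, which had adult arrays far above all fetal arrays, and Fmo1 and Aldh1b1, which had their highest level in the OC.2- cells. They are the 250 bases upstream of the gene start in RefSeq's GRCr8 assembly, written 5′ to 3′ along the gene. Akr1c2 lies at chr17:70717881-70718130 on the minus strand, Ces1c at chr19:30099197-30099446 on the plus strand, Fmo1 at chr13:77747667-77747916 on the minus strand and Aldh1b1 at chr5:64858750-64858999 on the plus strand. Capitals mark a match to TTGCNNAA, a core of sites read by the C/EBP factors and related leucine zipper factors, or to CAAAGT, contained in sites read by HNF4 and related nuclear receptors, on either strand.
Akr1c2: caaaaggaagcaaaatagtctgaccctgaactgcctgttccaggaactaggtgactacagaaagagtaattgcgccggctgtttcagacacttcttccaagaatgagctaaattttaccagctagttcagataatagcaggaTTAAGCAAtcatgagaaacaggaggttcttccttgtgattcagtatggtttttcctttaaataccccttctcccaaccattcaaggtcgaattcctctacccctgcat
Ces1c: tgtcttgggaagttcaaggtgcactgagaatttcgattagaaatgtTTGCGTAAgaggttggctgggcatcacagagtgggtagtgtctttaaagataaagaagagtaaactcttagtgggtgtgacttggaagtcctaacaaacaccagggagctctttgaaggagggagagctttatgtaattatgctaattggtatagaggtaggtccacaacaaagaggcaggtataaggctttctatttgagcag
Fmo1: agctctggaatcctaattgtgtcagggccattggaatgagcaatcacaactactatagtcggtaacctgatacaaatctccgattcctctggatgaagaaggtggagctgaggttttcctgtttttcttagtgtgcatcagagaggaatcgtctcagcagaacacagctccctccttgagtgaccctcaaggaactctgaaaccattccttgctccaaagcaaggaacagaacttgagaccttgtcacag
Aldh1b1: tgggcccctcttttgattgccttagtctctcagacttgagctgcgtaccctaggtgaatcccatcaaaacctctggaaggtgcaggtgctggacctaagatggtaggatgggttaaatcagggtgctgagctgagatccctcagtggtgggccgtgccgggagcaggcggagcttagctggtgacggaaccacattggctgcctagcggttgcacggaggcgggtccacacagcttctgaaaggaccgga
Of the 58 members 48 had an entry in the promoter table. TTGCNNAA was found in 9 of the 48 (18.8%), against 9.2% of all 27457 promoters, and CAAAGT in 12 of the 48 (25.0%), against 12.8%. Ces2e held both motifs. Akr1c2 and Ces1c each held TTGCNNAA once in the window, while the windows of Fmo1 and Aldh1b1 held neither motif. Of the other members with TTGCNNAA, Akr7a3, Ces1d, Ces2e and Ces4a were called higher in adult than in OC.2- cells. Akr1b8 and Aldh3b1 were called lower, and Fmo2 was not called. Of all 58 members, 55.2% were called higher in that comparison and 15.5% lower, against 20.9% and 23.7% of all genes. A link between motif and level was not tested. A match describes letters and is not a site shown to be used.

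All values below are log2 of the deposited array intensity, given in replicate order, and folds are ratios of geometric group means with 95% intervals in parentheses. A gene was called when its limma p-value, adjusted over all 14497 genes (Benjamini-Hochberg), was under 0.05. Array medians over these genes were 6.59 to 6.62 on adult arrays, 6.68 to 6.69 on OC.2+ arrays and 6.69 to 6.72 on OC.2- arrays. Of the members, 18 lay below the median of their array on all 9 arrays, 14 lay above it on all 9 and 26 were mixed. There is no detection call, so low values do not show whether a gene was expressed. Probe sets of close relatives within the Akr1c, Ces1, Ces2 and Adh families may bind each other's RNA, and this was not tested.

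**Figure D1:**
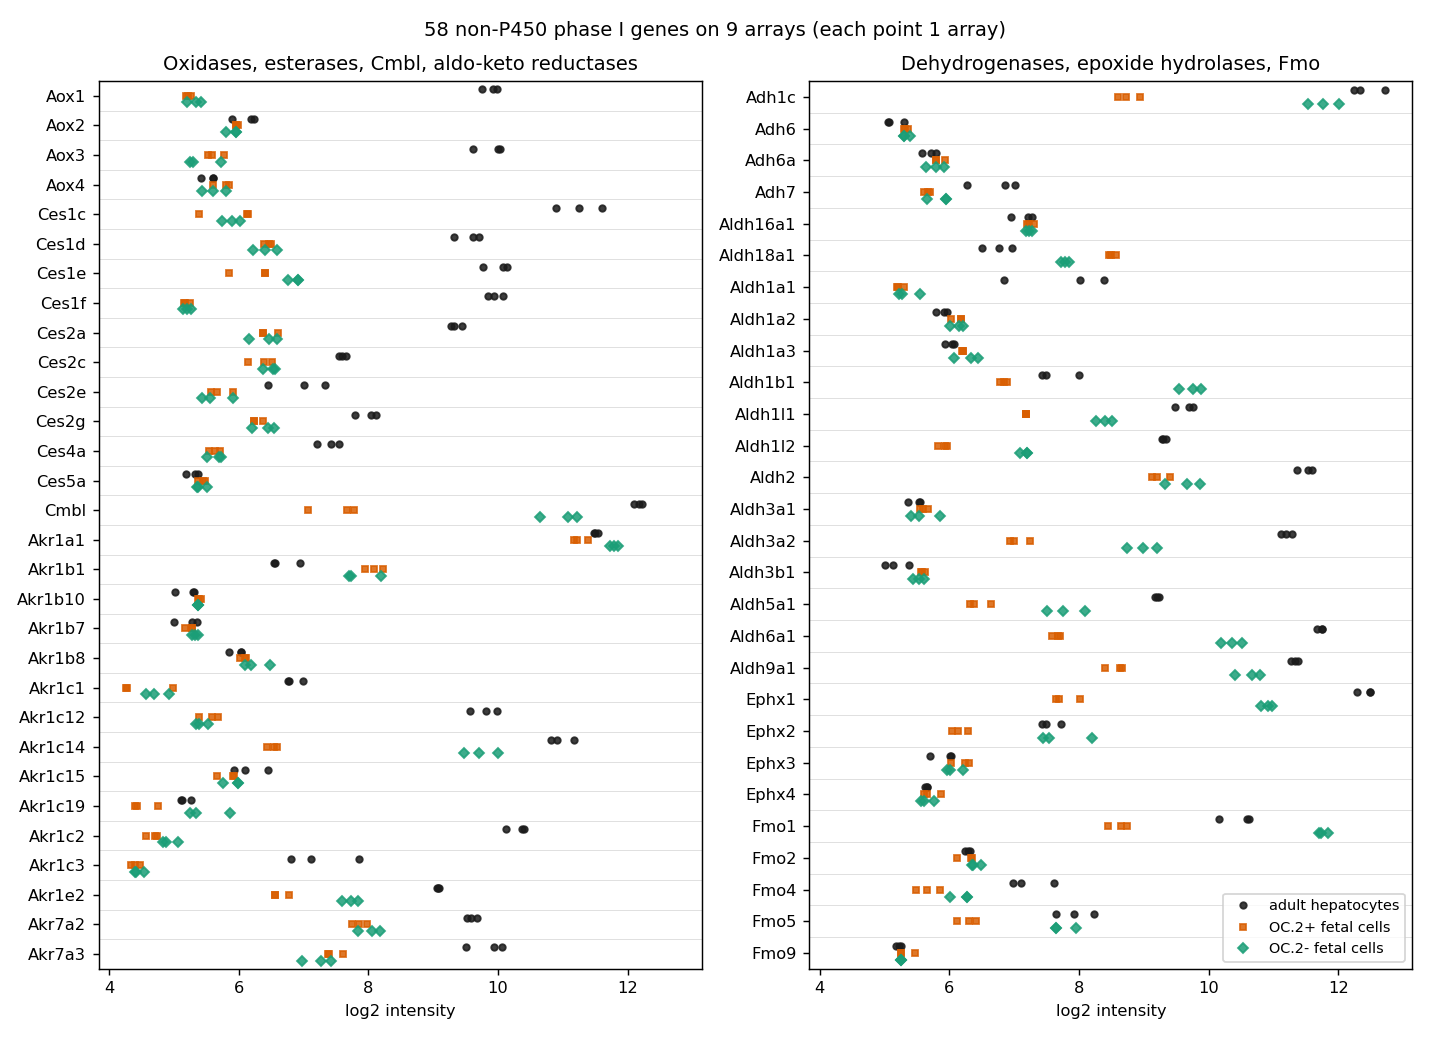
Log2 intensity of each of the 58 members on each of the 9 arrays, by family, with adult hepatocytes, OC.2+ cells and OC.2- cells as separate symbols. Most carboxylesterases and Akr1c members have adult arrays far to the right of both fetal groups, while Fmo1 and Aldh1b1 have the OC.2- arrays farthest to the right.

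Against OC.2- cells, adult hepatocytes had 32 of the 58 members higher (55.2%, against 20.9% of all genes) and 9 lower (15.5%, against 23.7%), and 17 were not called. Among the called members, 29 were at least 2-fold higher (against 6.58% of all genes) and 4 at least 2-fold lower (against 4.06%). The median log2 difference was 0.96 over the members and -0.07 over all genes, with a range of -2.09 (Aldh1b1) to 5.37 (Akr1c2). Against OC.2+ cells, adult hepatocytes had 39 members higher (67.2%, against 23.4% of all genes) and 4 lower (6.9%, against 32.0%), and 15 were not called. At least 2-fold differences were found in 35 higher members (against 11.1% of all genes) and 2 lower ones (against 7.82%), and the median log2 difference was 1.68 over the members and -0.11 over all genes. These comparisons share the adult arrays. Scaling changed the all-gene split: 46.9% of the genes called between adult and OC.2- cells were higher in adult hepatocytes as deposited, and 61.9% after each array was centred on its median. The all-gene median was -0.07 as deposited and 0.04 after that centring, under which 34 members were higher and 4 lower.

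Between the fetal groups the split ran the other way. OC.2+ cells had 1 member higher than OC.2- cells, Aldh18a1 (1.72%, against 20.3% of all genes), 20 lower (34.5%, against 18.2%) and 37 not called. None of the members was at least 2-fold higher and 15 were at least 2-fold lower (against 3.69% and 6.63% of all genes). The median log2 difference was -0.11 over the members and 0.04 over all genes. Another member was called higher without OC.2- replicate 1 (Akr1b1, adjusted p = 0.0426) or without OC.2- replicate 3 (Aox3, adjusted p = 0.0477), which gave 2 higher members in either case.

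**Figure D2:**
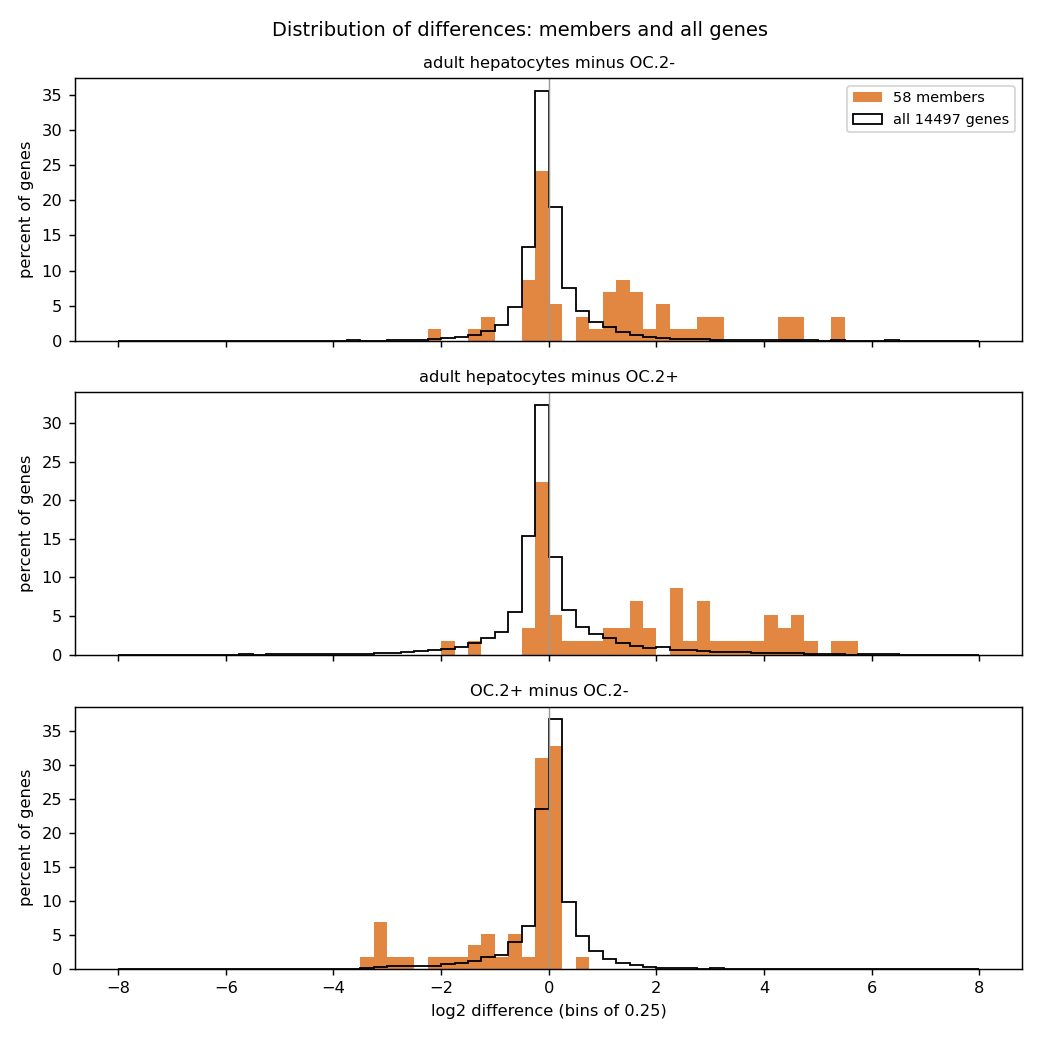
Log2 differences of the 58 members beside those of all 14497 genes in the 3 comparisons, as shares of each set. The members reach 5.37 and 5.62 in the comparisons of adult hepatocytes with OC.2- and OC.2+ cells, and -3.48 in that of OC.2+ with OC.2- cells.

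By order of the array ranges, 14 members had adult arrays above all OC.2- arrays and these above all OC.2+ arrays (24.1%, against 9.72% of all genes): Adh1c, Akr1c2, Akr1c14, Akr1e2, Aldh1l1, Aldh1l2, Aldh3a2, Aldh5a1, Aldh6a1, Aldh9a1, Ces1e, Cmbl, Ephx1 and Fmo4. Another 18 had adult arrays above both fetal groups, whose own ranges overlapped (31.0%, against 7.17%): Adh7, Akr1c1, Akr1c3, Akr1c12, Akr7a2, Akr7a3, Aldh1a1, Aldh2, Aox1, Aox3, Ces1c, Ces1d, Ces1f, Ces2a, Ces2c, Ces2e, Ces2g and Ces4a. In 3 members, Akr1a1, Aldh1b1 and Fmo1, the adult arrays lay between those of OC.2+ and OC.2- cells, with OC.2- highest (5.2%, against 1.46%). In 6.89% of all genes OC.2- arrays lay above those of both other groups. An order of adult above OC.2+ above OC.2- was found in 0 members, against 2.15% of all genes. Carboxylesterases made up 8 of the 18 members with adult arrays above both overlapping fetal groups, and aldehyde dehydrogenases 6 of the 14 with a graded order.

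Aldehyde oxidases are molybdenum enzymes that oxidise aldehydes and nitrogen-containing rings. Of the 4 members, Aox1 and Aox3 were higher in adult hepatocytes than in either fetal group, and Aox2 and Aox4 were not called. That was 50.0%, against 20.9% of all genes (over OC.2- cells) and 23.4% (over OC.2+ cells). Aox1 had 9.75, 9.98 and 9.92 in adult hepatocytes, 5.18, 5.22 and 5.27 in OC.2+ cells and 5.34, 5.42 and 5.20 in OC.2- cells. It was 23.7-fold (20.7 to 27.0) higher in adult hepatocytes than in OC.2- cells (adjusted p = 5.79e-13) and 25.3-fold (22.2 to 28.9) higher than in OC.2+ cells. Aox3, a liver form in rodents, had adult values of 10.00, 9.61 and 10.02, OC.2+ values of 5.58, 5.77 and 5.52 and OC.2- values of 5.24, 5.29 and 5.73. Its folds were 22.0-fold (17.8 to 27.2) over OC.2- cells and 19.1-fold (15.4 to 23.6) over OC.2+ cells, and for both genes the ranges of the fetal groups overlapped. Aox1 and Aox3 lay below the array median on all 6 fetal arrays, so their folds are not ranked. Aox4 had group means of 5.54 in adult, 5.75 in OC.2+ and 5.62 in OC.2- cells. Aox2 had group means of 6.10 in adult, 5.97 in OC.2+ and 5.91 in OC.2- cells, and without adult replicate 3 it was called higher in adult hepatocytes than in OC.2- cells (adjusted p = 0.0143) and OC.2+ cells (adjusted p = 0.0351). In the GRCr8 gene order, used here for neighbours only, Aox1, Aox3 and Aox4 are adjacent and Aox2 lies 1 gene further, so genes of 1 cluster had different patterns.

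Carboxylesterases hydrolyse ester drugs and, in some cases, stored triglyceride. Of the 10 members, 9 were at least 2-fold higher in adult hepatocytes than in each fetal group, and the exception was Ces5a, known from kidney and epididymis, with group means of 5.29 in adult, 5.43 in OC.2+ and 5.41 in OC.2- cells. Ces1c, which in mice is secreted into plasma, had values of 10.89, 11.25 and 11.61 on the adult arrays, 5.39, 6.14 and 6.12 on the OC.2+ arrays and 5.89, 5.75 and 6.03 on the OC.2- arrays. It was 41.1-fold (30.3 to 55.7) higher in adult hepatocytes than in OC.2- cells and 41.1-fold (30.4 to 55.8) higher than in OC.2+ cells, and the fetal groups differed by 0.00 ± 0.20 (SE) on the log2 scale. Ces1d, a triglyceride hydrolase in mouse liver, had 9.61, 9.32 and 9.71 in adult hepatocytes, 6.50, 6.47 and 6.39 in OC.2+ cells and 6.22, 6.41 and 6.58 in OC.2- cells. Its adult arrays lay above all fetal arrays, with folds of 8.81-fold (7.42 to 10.5) over OC.2- cells and 8.52-fold (7.18 to 10.1) over OC.2+ cells.

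Ces1e was the only carboxylesterase called between the fetal groups (1 of 10 lower in OC.2+ cells, 10.0%, against 18.2% of all genes). It had adult values of 9.76, 10.14 and 10.07, OC.2+ values of 6.41, 6.41 and 5.85 and OC.2- values of 6.91, 6.91 and 6.75. The 3 groups did not overlap, and the gene was 1.55-fold (1.24 to 1.93) lower in OC.2+ relative to OC.2- cells (adjusted p = 0.00351). Ces1f, the remaining Ces1 member, was 26.8-fold higher in adult hepatocytes than in OC.2- cells and 27.1-fold higher than in OC.2+ cells. Ces1f, Ces1e, Ces1d and Ces1c are adjacent in the GRCr8 order. Ces1c, Ces1d and Ces1f lay below the array median on all 6 fetal arrays, where no detection call was available, so their folds are not ranked.

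The Ces2 genes, related to the human intestinal esterase CES2, were also higher in adult hepatocytes. Their folds were 2.16 (Ces2c) to 7.65 (Ces2a) over OC.2- cells and 2.32 (Ces2e) to 7.42 (Ces2a) over OC.2+ cells. They too lay below the array median on every fetal array, so these folds are not set against those of Ces1. Ces2c had values of 7.55, 7.59 and 7.66 on the adult arrays, 6.14, 6.51 and 6.39 on the OC.2+ arrays and 6.38, 6.54 and 6.56 on the OC.2- arrays. Ces2e had 7.01, 7.34 and 6.46 in adult hepatocytes, 5.67, 5.91 and 5.58 in OC.2+ cells and 5.55, 5.42 and 5.91 in OC.2- cells. The third adult array of Ces2e was its lowest and still lay above every fetal array. Ces2g and Ces4a were 3.00-fold and 3.35-fold higher in adult than in OC.2- cells, and Ces4a too lay below the array median on all 6 fetal arrays. A second probe set of Ces2g had 6.42 to 6.71 on adult, 4.64 to 4.90 on OC.2+ and 4.52 to 4.57 on OC.2- arrays. On it the fetal groups were apart, with OC.2+ higher, whereas they overlapped on the probe set used. Cmbl, a hydrolase that in humans activates the ester prodrug olmesartan medoxomil, had OC.2- arrays far above the array median. It had adult values of 12.22, 12.18 and 12.10, OC.2+ values of 7.78, 7.07 and 7.66 and OC.2- values of 11.07, 11.21 and 10.65. Adult hepatocytes were 2.28-fold (1.75 to 2.96) above OC.2- cells and 25.4-fold (19.5 to 32.9) above OC.2+ cells, and OC.2+ cells were 11.1-fold (8.58 to 14.5) below OC.2- cells (adjusted p = 4.5e-09), the widest fetal difference among the members.

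Aldo-keto reductases use NADPH to reduce aldehydes, ketones and steroids. Of the 15 members, 8 were higher and 3 lower in adult hepatocytes than in OC.2- cells (53.3% and 20.0%, against 20.9% and 23.7% of all genes). Against OC.2+ cells, 11 were higher and 1 lower (73.3% and 6.67%, against 23.4% and 32.0%). Between the fetal groups 4 were lower in OC.2+ relative to OC.2- cells (26.7%, against 18.2%). The 7 Akr1c members, mostly hydroxysteroid dehydrogenases, differed widely in their folds. Akr1c1, Akr1c2, Akr1c3 and Akr1c12 lay below the array median on all 6 fetal arrays, so their folds are not ranked. Akr1c2 had values of 10.39, 10.36 and 10.13 on the adult arrays, 4.58, 4.71 and 4.74 on the OC.2+ arrays and 4.83, 4.88 and 5.06 on the OC.2- arrays. Its adult arrays exceeded every fetal array, by 41.4-fold (35.8 to 47.8) over OC.2- cells and 49.1-fold (42.5 to 56.7) over OC.2+ cells, and the fetal groups, though apart on all arrays, were not called (adjusted p = 0.0613) except in 4 other settings. Akr1c12 was 20.7-fold higher in adult hepatocytes than in OC.2- cells and 18.9-fold higher than in OC.2+ cells, and for Akr1c3 and Akr1c1 the folds were 6.98 and 4.30 over OC.2- cells. Without OC.2+ replicate 1, Akr1c1 was called lower in OC.2+ relative to OC.2- cells (adjusted p = 0.00839).

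Akr1c14, the 3-alpha-hydroxysteroid dehydrogenase of rat liver, had a graded order. It had 11.17, 10.91 and 10.81 in adult hepatocytes, 6.58, 6.44 and 6.54 in OC.2+ cells and 9.71, 9.99 and 9.47 in OC.2- cells. Adult hepatocytes were 2.36-fold (1.95 to 2.87) above OC.2- cells and 21.8-fold (17.9 to 26.4) above OC.2+ cells, and OC.2+ cells were 9.21-fold (7.59 to 11.2) below OC.2- cells. Akr1c19 was dim, with group means of 5.17 in adult, 4.53 in OC.2+ and 5.48 in OC.2- cells, as was Akr1c15, with group means of 6.16 in adult, 5.83 in OC.2+ and 5.92 in OC.2- cells. Akr1c15 was called higher in adult than in OC.2+ cells at adjusted p = 0.0475 with overlapping arrays, a call lost when any 1 array other than adult replicate 2 and OC.2- replicate 2 was left out (adjusted p of 0.0564 to 0.213). In the GRCr8 order Akr1c14 is flanked by Akr1c3 and Akr1c15, neither of which was called between the fetal groups.

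Outside the Akr1c genes the directions were mixed. Akr7a3, the aflatoxin aldehyde reductase that is inducible in rat liver, had adult values of 9.51, 9.94 and 10.06, OC.2+ values of 7.61, 7.37 and 7.40 and OC.2- values of 6.97, 7.42 and 7.27. It was 6.13-fold (4.92 to 7.63) higher in adult hepatocytes than in OC.2- cells and 5.19-fold (4.17 to 6.46) higher than in OC.2+ cells, and the adjacent Akr7a2 was 2.96-fold higher than in OC.2- cells and 3.32-fold higher than in OC.2+ cells. It was called between the fetal groups, lower in OC.2+, when OC.2- replicate 3 was left out (adjusted p = 0.0479). Akr1b1, the aldose reductase that makes sorbitol from glucose, went the other way. It had values of 6.95, 6.56 and 6.54 on the adult arrays, 8.22, 7.95 and 8.09 on the OC.2+ arrays and 8.19, 7.70 and 7.73 on the OC.2- arrays. Adult hepatocytes were 2.28-fold (1.84 to 2.83) below OC.2- cells and 2.65-fold (2.14 to 3.28) below OC.2+ cells, and the fetal groups overlapped. A second probe set of Akr1b1 had adult values of 5.30 to 5.69, below the 5.97 to 6.22 of OC.2+ cells and the 5.80 to 6.13 of OC.2- cells.

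Akr1b8, a relative of aldose reductase, had 5.85, 6.04 and 6.03 in adult hepatocytes, 6.01, 6.11 and 6.09 in OC.2+ cells and 6.48, 6.09 and 6.19 in OC.2- cells. Its call as 1.22-fold lower in adult than in OC.2- cells (adjusted p = 0.0403) was lost when any 1 array other than adult replicate 2, OC.2- replicate 2 and OC.2- replicate 3 was left out (adjusted p of 0.0529 to 0.177). Its neighbours Akr1b7 and Akr1b10 were not called in any comparison and had values of 5.01 to 5.42 over all arrays. Akr1a1, a general aldehyde reductase, was well above the array median in all groups. It had adult values of 11.50, 11.54 and 11.48, OC.2+ values of 11.38, 11.22 and 11.17 and OC.2- values of 11.79, 11.85 and 11.72. The 3 groups did not overlap, with adult hepatocytes 1.21-fold (1.08 to 1.37) below OC.2- cells and 1.19-fold (1.05 to 1.34) above OC.2+ cells. The first call was lost after median centring and cyclic loess (adjusted p of up to 0.108). Between the fetal groups the log2 difference was -0.53 ± 0.08 (SE) (adjusted p = 0.000123), and that call was lost after cyclic loess (-0.17, adjusted p = 0.0969). The direction of adult against OC.2+ cells was not kept under other scalings: the log2 difference was 0.25 as deposited, -0.37 after quantile normalization and -0.017 after cyclic loess. This call was also lost without OC.2+ replicate 2 or replicate 3 (adjusted p of 0.0581 to 0.0712). Akr1e2, which reduces anhydrofructose, was 2.55-fold higher in adult than in OC.2- cells and 5.43-fold higher than in OC.2+ cells.

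Alcohol dehydrogenases and the Aldh1a enzymes act in turn on ethanol, which ends as acetate, and on retinol, which ends as retinoic acid. Of the 4 alcohol dehydrogenases, Adh1c and Adh7 were higher in adult hepatocytes than in each fetal group, and Adh6 and Adh6a were not called. The share higher was 50.0%, against 20.9% of all genes (over OC.2- cells) and 23.4% (over OC.2+ cells). Adh6 had group means of 5.14 in adult, 5.33 in OC.2+ and 5.33 in OC.2- cells, and without adult replicate 1 it was called lower in adult hepatocytes than in OC.2- cells (adjusted p = 0.0179) and OC.2+ cells (adjusted p = 0.0158). Adh1c, a class I enzyme of ethanol oxidation, had values of 12.34, 12.72 and 12.24 on the adult arrays, 8.94, 8.72 and 8.59 on the OC.2+ arrays and 11.77, 12.01 and 11.53 on the OC.2- arrays. Adult hepatocytes were 1.58-fold (1.27 to 1.97) above OC.2- cells and 12.8-fold (10.3 to 16.0) above OC.2+ cells, and OC.2+ cells were 8.11-fold (6.52 to 10.1) below OC.2- cells. Adh7, a class IV enzyme known for retinol oxidation in the upper digestive tract, had 6.86, 7.01 and 6.28 in adult hepatocytes, 5.69, 5.61 and 5.67 in OC.2+ cells and 5.95, 5.65 and 5.95 in OC.2- cells. It was 1.82-fold (1.44 to 2.30) higher in adult hepatocytes than in OC.2- cells and 2.08-fold (1.64 to 2.64) higher than in OC.2+ cells, and 1 adult array, at 6.28, was itself below its array median. Adh7, Adh1c, Adh6a and Adh6 are adjacent in the GRCr8 order.

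Among the retinaldehyde dehydrogenases, Aldh1a1 was higher in adult hepatocytes, while Aldh1a2 and Aldh1a3 had group means of 5.89 to 6.28. Aldh1a1 had adult values of 6.84, 8.38 and 8.01, OC.2+ values of 5.21, 5.29 and 5.19 and OC.2- values of 5.55, 5.22 and 5.28. Its adult arrays spread widely (SD 0.80, n = 3) but lay above every fetal array, with folds of 5.27-fold (3.45 to 8.05) over OC.2- cells and 5.71-fold (3.74 to 8.72) over OC.2+ cells. All 6 fetal values of Aldh1a1 were below the array median. Aldh1a2, the enzyme that makes most embryonic retinoic acid, had values of 5.92, 5.79 and 5.97 on the adult arrays, 6.02, 6.18 and 6.17 on the OC.2+ arrays and 6.21, 6.00 and 6.15 on the OC.2- arrays. It was called 1.17-fold lower in adult than in OC.2- cells (adjusted p = 0.0478) and 1.18-fold lower than in OC.2+ cells, and both calls were lost without adult replicate 1 or 2 or OC.2+ replicate 2 or 3, and the first also without OC.2- replicate 1 or 3 (adjusted p of 0.0595 to 0.157 for the first and 0.0617 to 0.125 for the second). Aldh1a3 was called 1.20-fold lower in adult than in OC.2- cells with overlapping arrays, a call lost when any 1 array other than adult replicate 3 and OC.2- replicate 2 was left out (adjusted p of 0.0512 to 0.133).

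Mitochondrial acetaldehyde dehydrogenase, Aldh2, and its close relative Aldh1b1 had opposite differences between adult and OC.2- cells. Aldh2 had 11.53, 11.37 and 11.59 in adult hepatocytes, 9.41, 9.12 and 9.20 in OC.2+ cells and 9.67, 9.87 and 9.32 in OC.2- cells. It was 3.68-fold (3.03 to 4.47) higher in adult hepatocytes than in OC.2- cells and 4.77-fold (3.92 to 5.80) higher than in OC.2+ cells. Its fetal difference of -0.38 ± 0.13 (SE), at adjusted p = 0.036, came from overlapping arrays and was not called without OC.2+ replicate 2 or 3 or OC.2- replicate 1 or 2 (adjusted p of 0.102 to 0.163). Aldh1b1 had adult values of 7.99, 7.48 and 7.43, OC.2+ values of 6.84, 6.78 and 6.89 and OC.2- values of 9.75, 9.88 and 9.54. The 3 groups were apart on all arrays, with adult hepatocytes 4.25-fold (3.46 to 5.22) below OC.2- cells and 1.74-fold (1.41 to 2.13) above OC.2+ cells. OC.2+ cells were 7.38-fold (6.01 to 9.06) below OC.2- cells (adjusted p = 2.68e-09).

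Aldh3a2, the microsomal dehydrogenase of long-chain fatty aldehydes, and its neighbour Aldh3a1, known as an abundant protein of the cornea, also differed. Aldh3a2 had values of 11.29, 11.12 and 11.19 on the adult arrays, 7.00, 6.93 and 7.24 on the OC.2+ arrays and 8.98, 9.20 and 8.73 on the OC.2- arrays. The groups were apart on all arrays, with adult hepatocytes 4.68-fold (3.91 to 5.59) above OC.2- cells and 17.6-fold (14.7 to 21.1) above OC.2+ cells, and OC.2+ cells 3.77-fold (3.15 to 4.51) below OC.2- cells. Aldh3a1 had 5.53, 5.36 and 5.54 in adult hepatocytes, 5.58, 5.67 and 5.54 in OC.2+ cells and 5.41, 5.52 and 5.85 in OC.2- cells. Its groups overlapped in each comparison and no difference was called. Aldh3b1, at group means of 5.17 in adult, 5.59 in OC.2+ and 5.52 in OC.2- cells, was called 1.28-fold lower in adult than in OC.2- cells and 1.33-fold lower than in OC.2+ cells, and the first call was lost after quantile normalization or median centring. Aldh16a1 had group means of 7.14 in adult, 7.24 in OC.2+ and 7.23 in OC.2- cells and was not called.

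The aldehyde dehydrogenases of amino acid and folate pathways mostly had a graded order. Of the 6, Aldh1l1, Aldh1l2, Aldh5a1, Aldh6a1 and Aldh9a1 were higher in adult hepatocytes than in each fetal group (83.3%, all genes 20.9% and 23.4%). The same genes were lower in OC.2+ relative to OC.2- cells (83.3%, all genes 18.2%), and Aldh18a1 was the reverse in all 3 comparisons. Aldh1l1, which oxidises formyltetrahydrofolate in the cytosol, had adult values of 9.48, 9.76 and 9.69, OC.2+ values of 7.18, 7.18 and 7.18 and OC.2- values of 8.40, 8.50 and 8.26. Adult hepatocytes were 2.39-fold (2.08 to 2.75) above OC.2- cells and 5.53-fold (4.81 to 6.34) above OC.2+ cells, and OC.2+ cells were 2.31-fold (2.01 to 2.65) below OC.2- cells. Aldh1l2, its mitochondrial counterpart, had a higher adult excess, 4.43-fold over OC.2- cells and 10.5-fold over OC.2+ cells.

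Aldh6a1, of valine and pyrimidine breakdown, had group means of 11.72 in adult, 7.66 in OC.2+ and 10.35 in OC.2- cells, and OC.2+ cells were 6.47-fold below OC.2- cells. Aldh9a1, of carnitine synthesis, was 4.15-fold lower and Aldh5a1, which clears succinic semialdehyde from GABA, 2.53-fold lower in OC.2+ relative to OC.2- cells. Aldh18a1 makes the precursor of proline and ornithine, a synthetic rather than a degrading step. It had values of 6.50, 6.97 and 6.76 on the adult arrays, 8.57, 8.46 and 8.49 on the OC.2+ arrays and 7.84, 7.72 and 7.79 on the OC.2- arrays. Adult hepatocytes were 2.05-fold (1.75 to 2.41) below OC.2- cells and 3.38-fold (2.88 to 3.97) below OC.2+ cells, and OC.2+ cells were 1.65-fold (1.41 to 1.94) above OC.2- cells (adjusted p = 9.95e-05). The order OC.2+ above OC.2- above adult was found in this 1 member, against 10.7% of all genes.

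**Figure D3:**
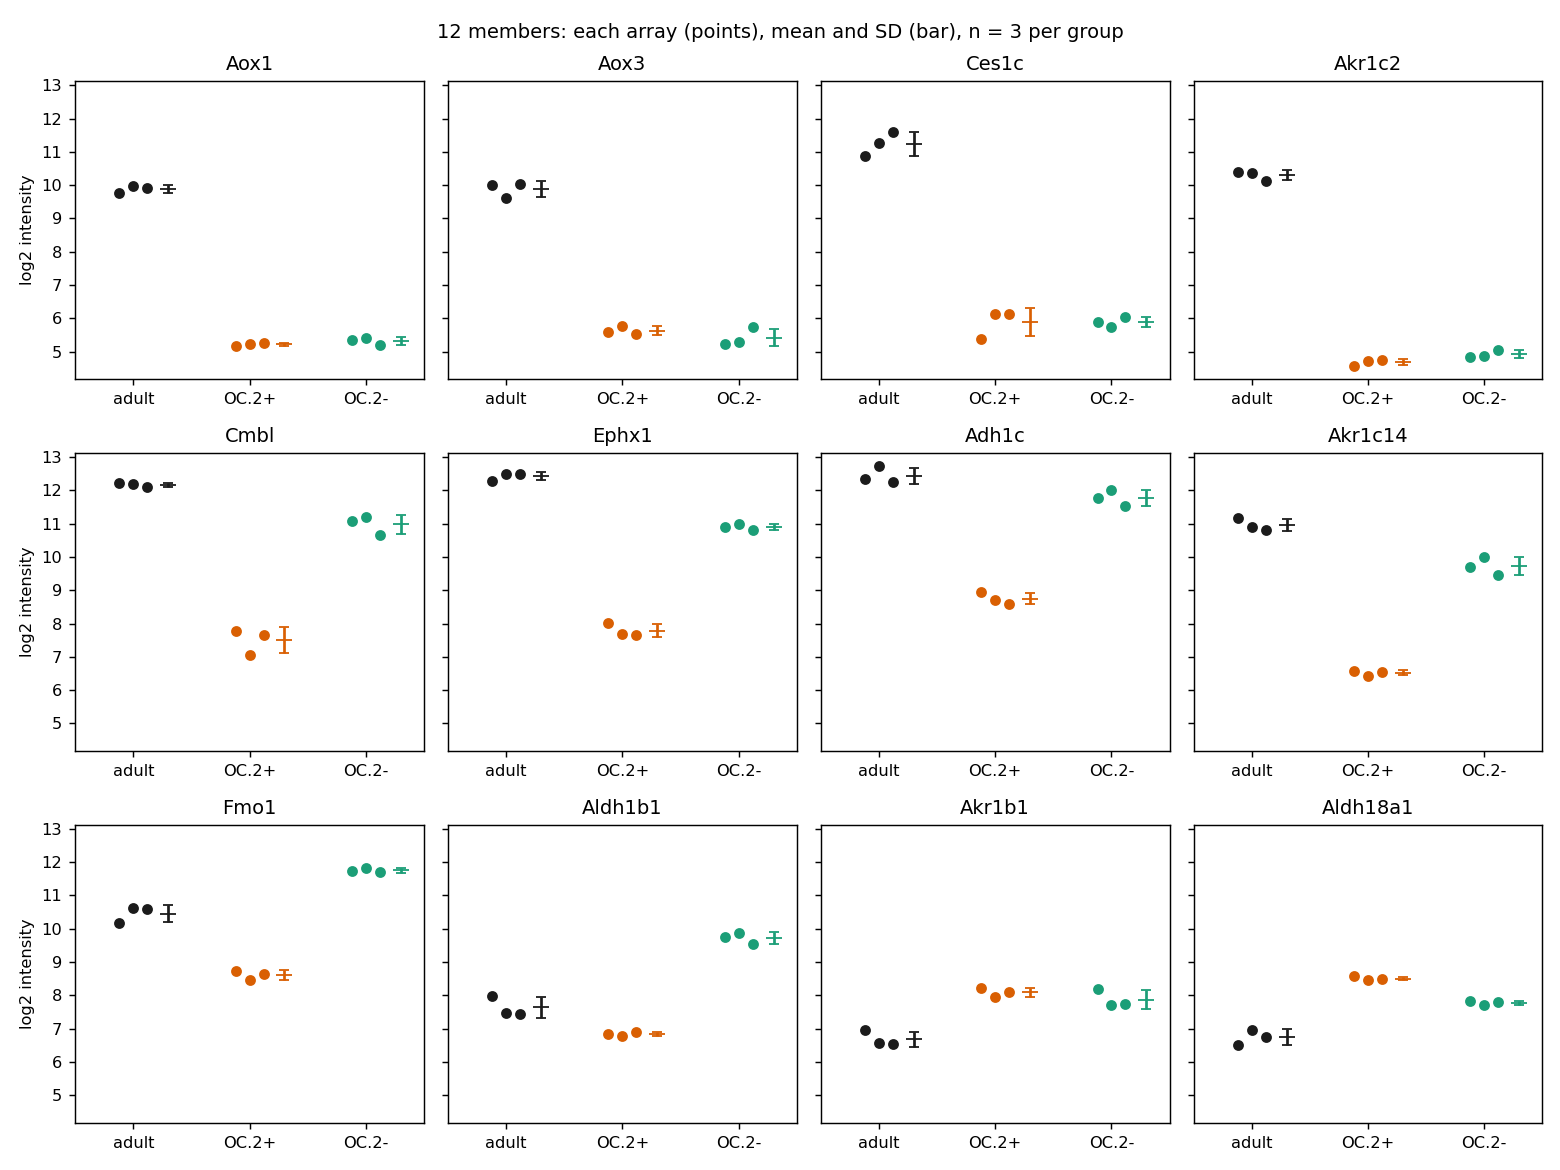
Log2 intensity of 12 members on each array (points), with adult hepatocytes, OC.2+ cells and OC.2- cells from left to right and the mean and SD of each group beside its points (n = 3). Aox1 and Akr1c2 are low in both fetal groups, Cmbl and Ephx1 are lowest in OC.2+ cells, and Fmo1 and Aldh1b1 are highest in OC.2- cells.

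Of the 4 epoxide hydrolases, Ephx1 and Ephx2 were lower in OC.2+ relative to OC.2- cells (50.0%, against 18.2% of all genes) and Ephx3 and Ephx4 were not called. Ephx1, the microsomal hydrolase of drug and hydrocarbon epoxides, had 12.28, 12.49 and 12.48 in adult hepatocytes, 8.01, 7.69 and 7.65 in OC.2+ cells and 10.91, 10.97 and 10.81 in OC.2- cells. Adult hepatocytes were 2.87-fold (2.45 to 3.35) above OC.2- cells and 24.9-fold (21.2 to 29.1) above OC.2+ cells, and OC.2+ cells were 8.68-fold (7.41 to 10.2) below OC.2- cells (adjusted p = 1.9e-10). Ephx2, the soluble hydrolase of epoxy fatty acids, had adult values of 7.49, 7.43 and 7.72, OC.2+ values of 6.29, 6.04 and 6.13 and OC.2- values of 7.54, 8.20 and 7.45. Its adult and OC.2- arrays overlapped and were not called apart (log2 difference -0.18 ± 0.17 (SE), 95% interval of the fold of OC.2- over adult 0.884 to 1.45), while OC.2+ cells were 2.98-fold (2.33 to 3.82) below OC.2- cells. Ephx3 had group means of 5.92 in adult, 6.18 in OC.2+ and 6.06 in OC.2- cells, and was called lower in adult than in OC.2+ cells only without adult replicate 2, OC.2+ replicate 1 or OC.2- replicate 3 among the arrays left out (adjusted p of 0.0268 to 0.0473).

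Of the 5 flavin-containing monooxygenases, 1 was higher and 1 lower in adult hepatocytes than in OC.2- cells. These shares of 20.0% each were near the 20.9% and 23.7% of all genes. In adult hepatocytes 3 were higher than in OC.2+ cells (60.0%, against 23.4% of all genes). Between the fetal groups 3 were lower in OC.2+ relative to OC.2- cells (60.0%, against 18.2%). Fmo1, which in human liver is known as a fetal form, had values of 10.16, 10.62 and 10.58 on the adult arrays, 8.74, 8.45 and 8.64 on the OC.2+ arrays and 11.73, 11.84 and 11.70 on the OC.2- arrays. The groups were apart on all arrays: adult hepatocytes were 2.46-fold (2.05 to 2.96) below OC.2- cells (adjusted p = 1.52e-06) and 3.59-fold (2.99 to 4.31) above OC.2+ cells, and OC.2+ cells were 8.86-fold (7.38 to 10.6) below OC.2- cells. Fmo5, which oxidises ketones to esters, had 7.64, 8.23 and 7.93 in adult hepatocytes, 6.40, 6.12 and 6.29 in OC.2+ cells and 7.64, 7.95 and 7.64 in OC.2- cells. Adult and OC.2- cells overlapped and were not called apart (adjusted p = 0.292), and OC.2+ cells were 2.78-fold (2.25 to 3.42) below OC.2- cells.

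Fmo4, adjacent to Fmo1 in the GRCr8 order, had adult values of 7.61, 7.11 and 6.98, OC.2+ values of 5.65, 5.85 and 5.48 and OC.2- values of 6.26, 6.26 and 6.01. It was 2.07-fold (1.65 to 2.60) higher in adult hepatocytes than in OC.2- cells and 2.96-fold (2.36 to 3.71) higher than in OC.2+ cells, so that these neighbours differed in opposite directions between adult and OC.2- cells. All 6 fetal values of Fmo4 were below the array median. The call of Fmo4 as 1.43-fold lower in OC.2+ relative to OC.2- cells (adjusted p = 0.0149) was lost without OC.2+ replicate 3, OC.2- replicate 1 or OC.2- replicate 2, at an adjusted p of up to 0.0789. Fmo2, a lung form, had group means of 6.28 in adult, 6.27 in OC.2+ and 6.39 in OC.2- cells, Fmo9 had group means of 5.22 in adult, 5.33 in OC.2+ and 5.26 in OC.2- cells, and neither was called in any comparison.

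**Figure D4:**
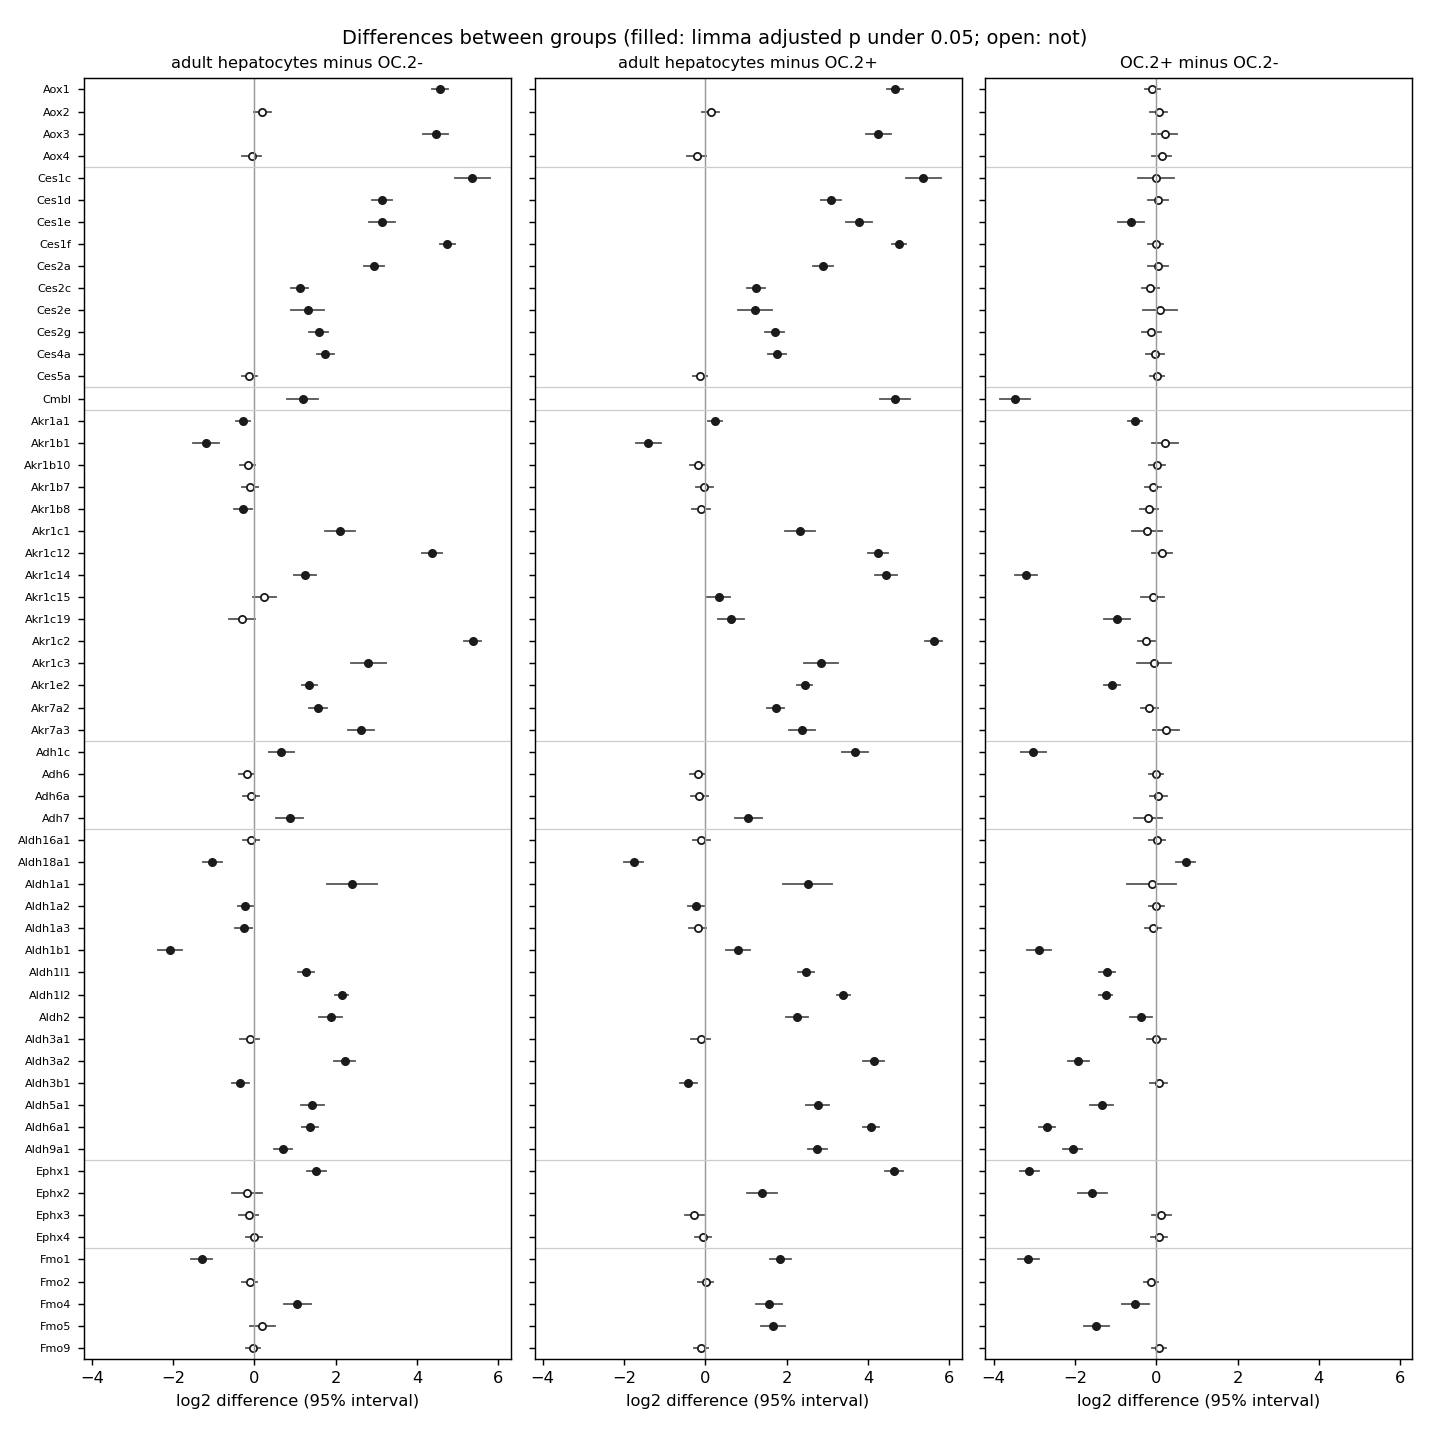
Log2 differences of each member with 95% intervals in the 3 comparisons, adult minus OC.2-, adult minus OC.2+ and OC.2+ minus OC.2-. Cmbl, Akr1c14, Fmo1, Ephx1 and Adh1c lie farthest to the left between the fetal groups, at -3.48 to -3.02, and Aldh18a1 alone is called to the right, at 0.72.

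The lower levels in OC.2+ relative to OC.2- cells stood beside differences in cell markers between these preparations. Of 7 hepatocyte markers 6 were lower in OC.2+ relative to OC.2- cells (85.7%, against 18.2% of all genes), and the median log2 difference was -2.34. The other, Tat, was not called. It had log2 values of 5.06 to 5.32 on OC.2+, 4.88 to 5.06 on OC.2- and 11.73 to 11.93 on adult arrays. Granulocyte markers were higher in 7 of 8 cases, and erythroid markers in 6 of the 6 measured, with sums of 25620 to 25700 on OC.2+ arrays and 10420 to 12830 on OC.2- arrays. Sinusoidal endothelial markers (4 of 7 measured) summed to 384 to 422 on OC.2+ arrays and 2773 to 3696 on OC.2- arrays. Of the stellate and mesenchymal markers 6 of 7 were lower in OC.2+ cells (85.7%, against 18.2%). Their sums were 3254 to 3989 on OC.2+ arrays and 4571 to 5332 on OC.2- arrays. The 3 megakaryocyte markers measured of 4 were all higher in OC.2+ cells, and of 4 mast cell and basophil markers 2 were higher and 2 lower. Of 8 macrophage markers 2 were lower (25.0%, against 18.2%). Ductal markers (5 of 6 measured) had 1 lower, a share of 20.0% that was near the 18.2% of all genes. They summed to 325 to 336 on OC.2+ arrays and 339 to 372 on OC.2- arrays. The part of these cell types in the members' differences was not tested. Adult arrays had the lowest erythroid sum, 712 to 742, so the comparisons of adult with fetal cells carry the same limit.

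Genes of related steps were set beside the members, from lists chosen with results of these data known. Among 26 measured oxidoreductases and hydrolases outside the member families, adult hepatocytes had 20 higher and 1 lower than OC.2- cells (76.9% and 3.85%, against 20.9% and 23.7% of all genes). Against OC.2+ cells 23 were higher and 1 lower (88.5% and 3.85%, against 23.4% and 32.0%). OC.2+ cells had 1 higher and 19 lower than OC.2- cells (3.85% and 73.1%, against 20.3% and 18.2%). Rdh16, a retinol and steroid dehydrogenase, was 38.0-fold higher in adult than in OC.2- cells and 36.0-fold higher than in OC.2+ cells, and the carbonyl reductase Cbr1 was 1.65-fold lower than in OC.2- cells. Maob, a monoamine oxidase, was 7.94-fold lower in OC.2+ relative to OC.2- cells, and xanthine dehydrogenase Xdh, the 1 exception, was 1.96-fold higher.

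Of 6 measured electron donors of the P450 system, 5 were higher and 0 lower in adult hepatocytes than in each fetal group. The share higher was 83.3%, against 20.9% of all genes (over OC.2- cells) and 23.4% (over OC.2+ cells). Between the fetal groups 3 of the 6, Cyb5b, Cyb5a and Por, were lower in OC.2+ cells (50.0%, against 18.2%). The cytochrome b5 reductase Cyb5r3 was higher, by 0.64 on the log2 scale (1 of 6, 16.7%, against 20.3%). P450 reductase, Por, was 1.87-fold higher than in OC.2- cells and 3.12-fold higher than in OC.2+ cells. Of 10 nuclear receptors and other xenobiotic sensors, 9 were higher and 1 lower in adult hepatocytes than in OC.2- cells, 10 were higher than in OC.2+ cells, and 6 were lower in OC.2+ relative to OC.2- cells. Nr1i3, the constitutive androstane receptor, was 3.49-fold higher in adult than in OC.2- cells, and the 1 that was lower was Ppara, the fatty acid receptor, by 1.83-fold. Hnf4a, a factor of hepatocyte identity, was 2.20-fold higher in adult than in OC.2- cells and 13.4-fold higher than in OC.2+ cells. It is also counted among the hepatocyte markers. Of 10 measured target genes of the oxidative stress factor Nfe2l2, adult hepatocytes had 5 higher and 4 lower than OC.2- cells (50.0% and 40.0%, against 20.9% and 23.7%). Gclm, a subunit of the glutathione-making enzyme, was 3.99-fold higher, and the glutathione transferase Gstp1 was 5.22-fold lower.

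Over all 174 member results, 58 genes in 3 comparisons, 105 were called, and 11 of these lost their call in at least 1 of 19 other settings that kept the threshold. Of the 105, 96 passed an adjusted p of 0.01 and 85 were also at least 2-fold. The standard error of a member's log2 difference had a median of 0.11 and reached 0.28 for Aldh1a1. The number of arrays limits the precision.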

How the data were processed

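Each of 9 rat liver preparations, 3 per group as titled, was run on 1 array, after mirVana extraction and amplification from 150 ng of RNA, per the labels' protocols. The authors deposited 1 table of array intensity on a linear scale, with 28826 probe sets. The submitters' processing notes name RMA and Partek 6.6 without saying what each did. Genome build: not given in the sources used here. RMA as usually run makes array distributions alike and shrinks differences of dim genes.

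The platform annotation gave 1 symbol to 15209 probe sets, several to 306 and none to 13311. RefSeq's GRCr8 gene table held 15178 of the single-symbol entries and changed 0. For 494 genes with more than 1 probe set, that of highest mean was used. The 4 probe sets that pair a member's name with another symbol were left out. Log2 values of all 9 arrays were fitted with group means in limma 3.58.1 (R 4.3.3, lmFit and eBayes, 6 residual degrees of freedom), with no filter on dim genes, 2-sided tests and Benjamini-Hochberg adjustment over 14497 genes. Array values were given for the called member with the highest and the lowest difference of each family and for a list of well-known members. The members, the lists and the named genes were chosen with earlier results of these data known. Alternatives covered scaling, dim genes, probe sets, variance, array weights, arrays in the fit, the replicate number as a block, the threshold and leaving out each array.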

Additional observations from a re-analysis of the deposited data

Results flagged for a closer look

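In 3 members, every adult array lay below every OC.2- array and above every OC.2+ array, so adult hepatocytes differed in opposite directions from the fetal groups. These comparisons share the adult arrays, and the difference between them is the difference between the fetal groups. The log2 difference of Fmo1 was -1.30 for adult minus OC.2- cells, 1.85 for adult minus OC.2+ cells and -3.15 for OC.2+ minus OC.2- cells (limma, adjusted p = 4.98e-10 for the last). For Aldh1b1 the values were -2.09 for adult minus OC.2- cells, 0.80 for adult minus OC.2+ cells and -2.88 for OC.2+ minus OC.2- cells (adjusted p = 2.68e-09 for the last). For Akr1a1 they were -0.28 for adult minus OC.2- cells, 0.25 for adult minus OC.2+ cells and -0.53 for OC.2+ minus OC.2- cells (adjusted p = 0.000123 for the last), but none of the 3 held under all scalings. The first was not called after median centring or cyclic loess, the second turned its direction after quantile normalization and cyclic loess, and the last was not called after cyclic loess. Groups of 3 arrays are too small for a test of single outlying arrays.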

How the results depend on the processing

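Of 174 member results, 105 were called, and 11 of these lost the call and 13 of the others gained one under at least 1 of 19 alternatives that kept the threshold; 96 of the 105 passed at adjusted p under 0.01 and 85 at 2-fold. The 1 reversal was Akr1a1 in adult minus OC.2+ cells, at -0.37 after quantile normalization and -0.017 after cyclic loess, and the cause was not tested. Members lower in adult than in OC.2- cells numbered 9, against 5 after quantile normalization, 4 after median centring, 5 after cyclic loess, 5 with genes below the median level left out, 5 at adjusted p under 0.01 and 4 at 2-fold. Members lower in adult than in OC.2+ cells numbered 4, against 2 with those genes left out and 2 at 2-fold. Members higher in OC.2+ relative to OC.2- cells numbered 1, against 2 with array weights, 0 at 2-fold and 1 to 2 when single arrays were left out (2 without OC.2- replicate 1 or 3). Over those omissions, members lower ranged from 6 to 9 (adult minus OC.2-), 3 to 5 (adult minus OC.2+) and 18 to 21 (OC.2+ minus OC.2-). With those genes left out, which tests fewer genes, 2043 of all genes were lower in adult than in OC.2- cells and 2664 lower than in OC.2+ cells, against 3431 and 4643. At 2-fold, all-gene counts of higher and lower were 954 and 588 (adult minus OC.2-), 1616 and 1133 (adult minus OC.2+), and 535 and 961 (OC.2+ minus OC.2-). Deviations from the group means had correlations of -0.226 to 0.106 between same-numbered arrays of different groups, and -0.16 to 0.285 between other arrays of different groups. With 3 arrays per group these values cannot show whether the numbers pair preparations. With the replicate number as a block, 32 members were higher and 7 lower in adult than in OC.2- cells, 39 and 4 against OC.2+ cells, and 1 and 20 between the fetal groups. Dim members, 18 below the array median throughout, limit what folds can show.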

Other observations

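Of 12 measured genes of retinoid handling outside the member families, adult hepatocytes had 4 higher and 4 lower than OC.2- cells (33.3% each, against 20.9% and 23.7% of all genes). Against OC.2+ cells 4 were higher and 3 lower (33.3% and 25.0%, against 23.4% and 32.0%). OC.2+ cells had 0 higher and 7 lower than OC.2- cells (0.0% and 58.3%, against 20.3% and 18.2%). Retsat, which saturates retinol, was 9.27-fold higher in adult than in OC.2- cells and 21.8-fold higher than in OC.2+ cells. Rbp2, a cellular retinol-binding protein known from intestine, was 37.4-fold lower in adult than in OC.2- cells, 4.01-fold lower than in OC.2+ cells, and 9.33-fold lower in OC.2+ relative to OC.2- cells (limma, adjusted p = 8.67e-11 for the last).

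The 4 probe sets that carry a member's name beside another symbol are named for no single gene. The one annotated to Ces1d and Ces1dl1 had log2 values of 10.4 to 10.6 on adult arrays, 5.19 to 5.26 on OC.2+ arrays and 5.22 to 5.43 on OC.2- arrays. That annotated to Ces1f, Cesl1 and Ces1c had 8.92 to 9.17 on adult arrays, 4.48 to 4.96 on OC.2+ arrays and 4.95 to 4.99 on OC.2- arrays. That annotated to Adh4 and Adh5 had 7.36 to 7.57 on adult arrays, 5.93 to 5.99 on OC.2+ arrays and 6.20 to 6.46 on OC.2- arrays. That annotated to Aldh4a1 and Tas1r2 had 8.01 to 8.20 on adult arrays, 6.18 to 6.75 on OC.2+ arrays and 7.64 to 7.79 on OC.2- arrays.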
